A study of Mus musculus with 37 samples.

Results

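Fos, Fosb, Jun, Junb, Jund, Egr1, Atf3, Ier2, Ier3 and Dusp1 are 10 immediate early genes, most of them parts of the transcription factor AP-1. They were chosen by symbol, and all 10 had a row in each of the 3 count tables, among 31533 gene symbols in any of the tables. RNA was sequenced from jejunal organoids, epithelial cultures grown from mouse intestinal crypts, in 3 experiments that asked how vasoactive intestinal peptide (VIP), a peptide of the enteric nervous system, acts on the epithelium and its progenitor cells. Whole organoids came from C57Bl6/J mice and were left untreated (3 mice) or given 100 nM VIP for 72 h (4 mice, 3 of them the same). In the other experiments, organoids came from Lgr5-EGFP-IRES-CreERT2 mice, which carry EGFP and a Cre recombinase at the Lgr5 locus, and Lgr5-EGFP+ progenitor cells were isolated from them. The 72 h experiment compared untreated cells with cells after 100 nM VIP for 72 h, in 4 mice. The irradiation experiment compared, in 4 mice, organoids without and with 6 Gy of irradiation, each untreated or with 100 nM VIP for 48 h. Every sorted sample, controls included, had passed through enzymatic dissociation with TrypLE, a stain for dead cells and a cell sorter, whereas whole organoids were lysed without sorting. No sample in the study was dissociated without being sorted, or sorted without being dissociated.

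AP-1 is a dimer of basic leucine zipper proteins. Jun, Junb and Jund can pair with each other or with Fos and Fosb, and Atf3 is a related zipper protein of the stress response. Immediate early genes are transcribed within minutes of a stimulus without new protein synthesis, through the MAP kinases and serum response factor and through cyclic AMP and CREB, and their mRNAs decay quickly. Egr1 is a zinc finger factor of the same rapid response, Ier2 and Ier3 are small response proteins, and Dusp1 is the phosphatase that switches p38 and JNK off again. VIP receptors raise cyclic AMP in epithelial cells. Digestion of a tissue into single cells is itself a known stimulus of these genes.

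The promoters are shown because CREB, the factor that responds to cyclic AMP, binds a short element, the CRE. All 10 genes are protein coding. In GENCODE M21 on GRCm38, Fos lies at chr12:85473890-85477273 on the plus strand, Junb at chr8:84974484-84978718 and Dusp1 at chr17:26505590-26562128 on the minus strand. Jun lies at chr4:95049034-95052222, Fosb at chr7:19302696-19310051, Atf3 at chr1:191170296-191218039 and Ier2 at chr8:84661331-84662852, all on the minus strand. Jund lies at chr8:70698949-70700616 and Ier3 at chr17:35821684-35822923, both on the plus strand. RefSeq promoter entries (GRCm38.p6) were matched for 8 members, and the 250 bases before the start were searched on both strands for TGACG, the core of the CRE, for the full CRE TGACGTCA, which contains 2 overlapping cores, for the AP-1 sites TGAGTCA and TGACTCA, and for the serum response factor site (CArG box).
Fos, 150 bases before the start, chr12:85473740-85473889, plus strand: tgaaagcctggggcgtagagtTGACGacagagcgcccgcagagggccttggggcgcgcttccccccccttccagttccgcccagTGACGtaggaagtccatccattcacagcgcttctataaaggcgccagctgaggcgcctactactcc
Junb, 150 bases before the start, chr8:84978749-84978898, minus strand: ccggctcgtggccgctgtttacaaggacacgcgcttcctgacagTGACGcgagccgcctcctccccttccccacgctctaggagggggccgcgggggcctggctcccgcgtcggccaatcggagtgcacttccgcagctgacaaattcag
Dusp1, 201 bases before the start, chr17:26508473-26508673, minus strand: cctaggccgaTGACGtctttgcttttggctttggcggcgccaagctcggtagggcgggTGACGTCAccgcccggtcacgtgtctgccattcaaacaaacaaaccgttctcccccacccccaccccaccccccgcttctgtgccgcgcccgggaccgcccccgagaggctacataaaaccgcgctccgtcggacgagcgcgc
Capitals mark the CRE core on either strand and, in Dusp1, the full CRE that starts 143 bases before the start. The core was found in Fos, Fosb, Junb, Atf3 and Dusp1, and was not in the windows of Jun, Jund and Ier3. Egr1 and Ier2 had no matched entry and were not searched, and only the windows of Fos, Junb and Dusp1 are printed. It was in 17.8% of 32851 RefSeq promoters and the full CRE was in 1.55% of them. The AP-1 site (4.46% of all promoters) and the CArG box (1.47%) were in none of the 8 windows, which says only that these letters are not there. The RefSeq start was not at the outer end of the GENCODE M21 gene for every member. It lay well inside the gene for Dusp1, whose window is printed above, and for Atf3, and outside it for Jund.

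Counts were unique molecular identifiers (UMIs), so each captured molecule was counted once at its 3′ end, and levels are given in CPM, the UMIs of a gene scaled to 1000000 UMIs per sample. Sample totals were 3722716 to 6330404 UMIs in whole organoids, 575242 to 1104126 in the 72 h sorted experiment and 1075715 to 1876729 in the irradiation experiment. The low members were therefore at a few counts in the 72 h sorted samples, in which Fosb had 0 to 6 UMIs and Atf3, Ier3 and Dusp1 had 2 to 16. Mitochondrially encoded genes took 4.9% to 9.39% of the counts. Immune markers summed to at most 7.25 CPM and mesenchymal markers to at most 3.48 in any sample. Against untreated whole organoids, all 6 enterocyte markers were lower in the untreated sorted cells of both experiments and the progenitor factor Ascl2 was higher (log2 fold changes 0.65 and 0.82), while the Lgr5 transcript itself was lower (−0.87 and −1.82). All listed stem cell markers summed to 2461 to 4311 CPM in untreated whole organoids. In untreated sorted cells they summed to 4143 to 5840 (72 h) and 3363 to 4354 (irradiation experiment). Markers of other epithelial cells were not lower throughout. Goblet markers summed to 5339 to 6624 CPM in untreated whole organoids. In untreated sorted cells they summed to 3687 to 7293 (72 h) and 5284 to 8273 (irradiation experiment). Paneth markers were at 11469 to 20111, 4812 to 13912 and 9757 to 14460 in the same order. Enteroendocrine markers were at 431 to 497, 246 to 677 and 974 to 1297. Tuft markers were at 7.79 to 10.6, 1.59 to 17.3 and 27.5 to 42.3. Adjusted p-values are those of the quasi-likelihood test in edgeR, corrected by the Benjamini-Hochberg method over all genes of a comparison unless DESeq2 is named, and a gene was called below 0.05. In bulk RNA, fewer cells of a type and less RNA per cell cannot be told apart.

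**Figure D1:**
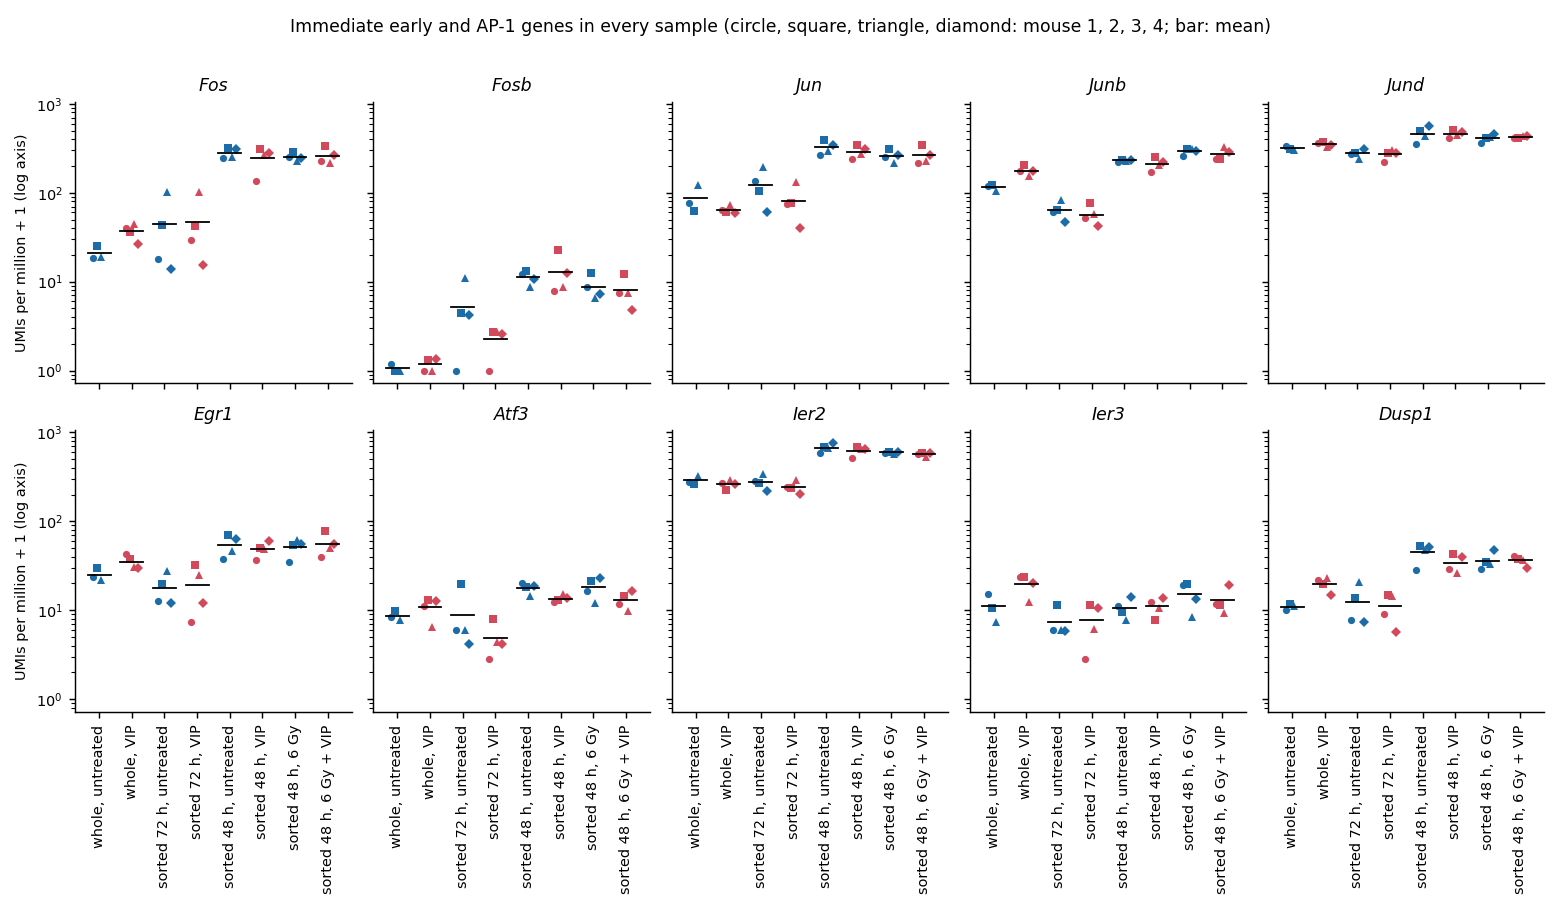
Level of each gene in every sample, as CPM (UMIs of a gene per 1000000 of the sample) plus 1 on a log axis, in the 8 groups; blue points are samples without VIP and red points samples with VIP, the marker shape is the mouse and the bar is the group mean. In the sorted cells of the irradiation experiment (labelled 48 h) Fos lay at 134 to 336 CPM in all 16 samples, above every whole organoid and every sorted sample of the 72 h experiment.

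In whole organoids 5 of the 9 members that could be tested were called higher with VIP, and none was called lower. These were Fos and Junb among the AP-1 subunits, the zinc finger factor Egr1, Ier3 and the phosphatase Dusp1, with fold changes between 1.5 and 2.06. Of all genes tested, 4.82% were called (614 of 12727, 474 of them higher), and the median log2 fold change was 0.59 over the 9 members and −0.00 over all genes. Fosb, with 0 to 2 UMIs in each whole-organoid sample, was too low to test.

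Fos was at 17.7, 24.1 and 18.0 CPM in the untreated organoids of mice 1, 2 and 3, and at 39.5, 35.6, 43.3 and 25.2 in the VIP-treated organoids of mice 1 to 4. Every treated sample was above every untreated one. The log2 fold change of Fos was 0.98 (SE 0.15), with an edgeR adjusted p of 0.00146, and it was higher in 3 of 3 mice. Dusp1 was at 9.01, 10.6 and 10.2 without VIP and at 20.98, 18.8, 22.0 and 13.9 with it. The groups did not overlap here either, and mouse 4, which had no untreated culture, was the lowest of the treated samples for both genes. Dusp1 rose by a log2 fold change of 1.04 (SE 0.17; edgeR adjusted p = 0.00228). Junb, the AP-1 subunit with the highest untreated level among the 5 genes that rose, was at 118, 120 and 105 in untreated and at 175, 204, 154 and 174 in VIP-treated organoids. All 4 treated samples lay above the untreated ones, with a log2 fold change of 0.63 (SE 0.10; edgeR adjusted p = 0.00155).

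Egr1 was at 22.5, 28.8 and 20.95 CPM in the untreated and at 42.0, 36.9, 29.7 and 28.85 in the VIP-treated samples. The highest untreated value, in mouse 2, nearly reached the lowest treated value, in mouse 4. Its log2 fold change was 0.59 (SE 0.14; edgeR adjusted p = 0.0265), and without mouse 1 it was 0.41 with an adjusted p of 0.468. Ier3 was at 14.2, 9.59 and 6.45 without VIP and at 22.4, 22.7, 11.4 and 19.2 with it. The groups of Ier3 overlapped, since treated mouse 3 was below untreated mouse 1, but each of the 3 paired mice was higher with VIP. Ier3 had a log2 fold change of 0.90 (SE 0.18; edgeR adjusted p = 0.0089), and without mouse 2 it was 0.70 with an adjusted p of 0.127. DESeq2's Wald test called 3 of the 9 members, Fos, Junb and Dusp1, and gave adjusted p-values of 0.291 for Egr1 and 0.111 for Ier3. Without the mouse as a block edgeR called only Junb, and Fos then had an adjusted p of 0.13 and Dusp1 of 0.0847.

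The other Jun genes did not follow Junb. Jun, the main partner of Fos, was at 75.7, 62.0 and 122 CPM in untreated and at 62.8, 59.1, 70.9 and 59.0 in treated organoids. It was lower with VIP in each of the 3 mice, by a log2 difference of −0.25, −0.05 and −0.84, and the difference was largest in mouse 3. The fitted value of −0.39 (SE 0.14) did not pass the test (edgeR adjusted p = 0.146), although it did without mouse 2 (adjusted p = 0.0305) and with all genes of any count in the fit (0.0291). Jund had a log2 fold change of 0.16 (adjusted p = 0.417), Atf3 of 0.26 (0.641) and Ier2 of −0.15 (0.449). The 95% intervals of these 3 members ran from −0.03 to 0.35, from −0.22 to 0.74 and from −0.34 to 0.04.

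**Figure D2:**
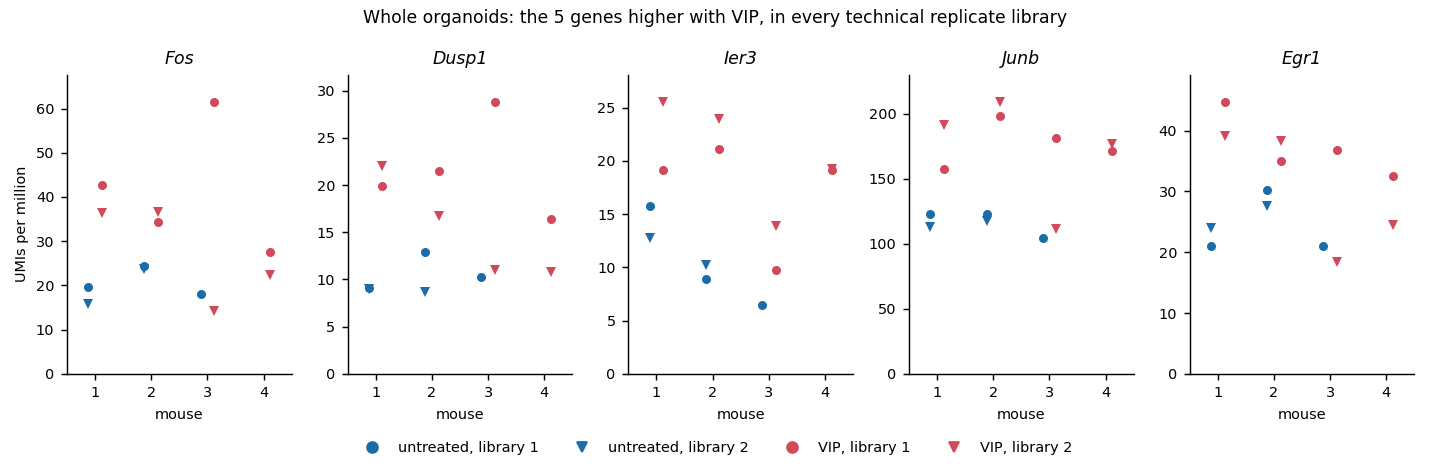
Level in each technical replicate library of whole organoids (CPM, axes from 0) for the 5 genes that rose with VIP; circles and triangles are library 1 and 2 of a culture, blue untreated and red VIP. Library 2 of VIP-treated mouse 3 was at 14.3 for Fos and 11.04 for Dusp1, as low as untreated organoids, while library 1 of that culture was at 61.5 and 28.8.

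Of the pair of libraries of VIP-treated mouse 3, library 2 was far below library 1 for Fos (14.3 against 61.5 CPM), Dusp1 (11.04 against 28.8), Egr1 (18.4 against 36.8) and Junb (112 against 181). For Ier3 the order was the other way, 13.9 in library 2 and 9.78 in library 1. Without library 2 of that culture the same number of members, 5, was called, and Fos then had a log2 fold change of 1.14. With only the first library of each culture 4 members were called, and Ier3 was at 0.69 with an adjusted p of 0.0962.

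Other genes of the same response rose in part. Of the 23 other immediate early effectors, 6 were higher and none lower, among them the EGF receptor ligands Areg (log2 fold change 1.15) and Hbegf (0.71) and the kinase Plk3 (0.78). Of the 12 other immediate early transcription factors tested, only Klf4 was called, at 0.89. Of the 12 feedback phosphatases and Sprouty genes tested, only Dusp6, which acts on ERK, was called (0.83), and of the 24 upstream kinases and transcription factors only Map2k1, which encodes MEK1, the kinase that activates ERK (0.45). Of the AP-1 partners outside the 10 genes, 1 of 9 tested was called (Batf2, 0.99), and of the 4 AP-1 target genes tested 1 was called (Plaur, the urokinase receptor, 1.34). Among the 12 heat shock genes tested, Hspa1a (2.23) and Hspa1b (1.64) were higher. These near-identical genes can share reads. With these genes, 5 of 6 goblet cell markers were higher with VIP, such as Clca1 (2.08), and the goblet markers summed to 5339 to 6624 CPM without and 7333 to 8953 with VIP. No goblet marker was at 0, and the part of cell composition in the rise of the members was not tested.

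**Figure D3:**
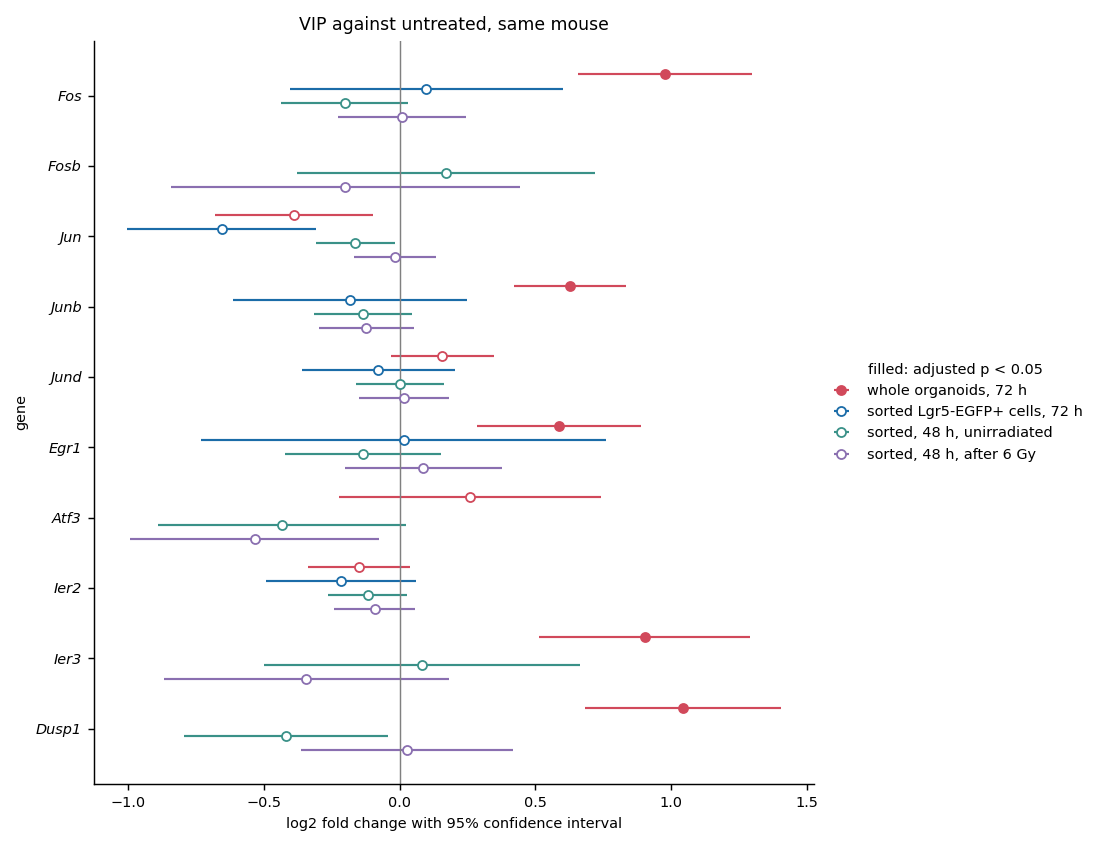
Log2 fold change of VIP-treated against untreated samples of the same mouse, with 95% confidence intervals, in whole organoids and in the 3 comparisons of sorted cells; filled points had an adjusted p below 0.05, and a gene without a point was too low to test. The filled points are the whole-organoid values of Fos, Junb, Egr1, Ier3 and Dusp1, between 0.59 and 1.04.

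In sorted Lgr5-EGFP+ cells, none of the 6 members that could be tested was called after 72 h of VIP, in a comparison in which 0.0885% of all genes were called (6 of 6778). DESeq2 also called 0 of them, and 1 member, Jun, had an unadjusted p below 0.05 in edgeR's test. Fosb, Atf3, Ier3 and Dusp1 did not pass the filter on low counts. Fos was at 16.9, 42.8, 100 and 12.7 CPM in the untreated cells of mice 1 to 4, and at 28.1, 41.7, 100 and 14.3 in the VIP-treated cells of the same mice. The mice differed by up to 7.89-fold without VIP and had the same order with VIP. The largest change within a mouse was 0.69 on the log2 scale, in mouse 1. Fos had a log2 fold change of 0.10 with a 95% interval from −0.40 to 0.60.

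Jun was at 135, 103, 192 and 60.4 CPM in the untreated cells of mice 1 to 4 and at 74.3, 76.5, 131 and 39.6 after VIP. All 4 mice were lower with VIP, mouse 3 was the highest in both groups and mouse 4 the lowest, and the groups overlapped. The log2 fold change was −0.65 (SE 0.17), which did not pass the adjusted threshold (edgeR unadjusted p = 0.000589, adjusted p = 0.206). Junb was at 59.1, 62.5, 82.2 and 46.1 without and at 51.6, 74.75, 56.2 and 41.2 with VIP, which is −0.18 on the log2 scale with an interval from −0.61 to 0.25. Jund, Egr1 and Ier2 had log2 fold changes of −0.08, 0.02 and −0.22. Dusp1 had 3 to 12 UMIs in each of these samples, at 6.75, 12.7, 19.7 and 6.36 CPM without and 8.15, 13.9, 13.6 and 4.75 with VIP, and it was not tested.

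The difference between the VIP effect in sorted cells and in whole organoids was tested as an interaction over the first pair of experiments. Of the 9 members tested, 0 passed the adjusted threshold by edgeR and 0 by DESeq2, and 0.147% of all genes were called (15 of 10194). All 9 values were below 0, and their median was −0.80 against 0.01 over all genes. Atf3, Ier3 and Dusp1 had 2 to 16 UMIs in each sorted sample. They passed the filter on low counts in this joint fit but not in the sorted cells alone, so their values rest on few counts. The unadjusted p was below 0.05 for 4 of the 9 members, Atf3 and Dusp1 among them. Junb was at −0.80 (95% interval −1.28 to −0.33; edgeR adjusted p = 0.33), Fos at −0.91 (−1.49 to −0.33; 0.425), Dusp1 at −1.22 (−2.12 to −0.32; 0.578) and Atf3 at −1.31 (−2.55 to −0.07; 0.754). Jun, which was lower with VIP in both settings, was at −0.27 (−0.73 to 0.19). The mouse strain, the mice, the sort and the depth all differ along with the setting and cannot be told apart.

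In the irradiation experiment VIP was given for 48 h. None of the 10 members was called with it in unirradiated cells (0.742% of all genes called, 74 of 9976) or in irradiated cells (0.221%, 22 of 9976). DESeq2 called 0 of them in either comparison. An unadjusted p below 0.05 was reached by Jun and Dusp1 in unirradiated cells and by Atf3 in irradiated cells. Jun was at 263, 391, 295 and 345 CPM in untreated, unirradiated cells of mice 1 to 4 and at 237, 343, 270 and 308 with VIP. Each mouse was lower with VIP by 0.12 to 0.20 on the log2 scale, and the groups overlapped. The log2 fold change was −0.16 (edgeR adjusted p = 0.343), and in irradiated cells it was −0.02 (95% interval −0.17 to 0.13).

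Dusp1 was at 27.0, 52.4, 46.7 and 49.8 without and at 27.8, 41.8, 24.9 and 38.4 with VIP in unirradiated cells. It was lower in 3 of 4 mice, with a log2 fold change of −0.42 (edgeR adjusted p = 0.349), and at 0.03 in irradiated cells. Atf3 was at 15.3, 20.5, 11.2 and 22.3 in irradiated cells without and at 10.7, 13.6, 8.83 and 15.6 with VIP, lower in 4 of 4 mice, although the groups overlapped. Its log2 fold change was −0.53 (edgeR adjusted p = 0.74), and −0.43 in unirradiated cells (adjusted p = 0.443). Fos, the gene that rose in whole organoids, was at 247, 315, 252 and 307 in untreated and at 134, 313, 263 and 279 in VIP-treated unirradiated cells. Mouse 1 was well below the other 3 with VIP, and the groups overlapped. Fos had a log2 fold change of −0.20 (95% interval −0.44 to 0.03) in unirradiated and 0.01 (−0.23 to 0.25) in irradiated cells. The interval of Junb was −0.32 to 0.05 in unirradiated and −0.30 to 0.05 in irradiated cells, both below the log2 fold change of 0.63 in whole organoids, and the 2 sorted comparisons share mice but no samples.

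Irradiation with 6 Gy moved Jun and Junb in opposite directions in untreated progenitor cells. These were 2 of the 10 members, against 4.46% of all genes (445 of 9976). Jun was at 263, 391, 295 and 345 CPM without and at 251, 309, 214 and 263 after irradiation, in mice 1 to 4. Each mouse was lower after irradiation, mouse 1 by only 0.05 on the log2 scale and the others by 0.35 to 0.45. The groups overlapped, and mouse 2 was the highest in both. The log2 fold change was −0.30 (SE 0.07; edgeR adjusted p = 0.0122). Junb was at 224, 236, 226 and 234 without and at 257, 310, 307 and 295 after irradiation. Here the groups did not overlap, and the unirradiated mice lay within 1.05-fold of each other. Junb had a log2 fold change of 0.35 (SE 0.09; edgeR adjusted p = 0.0151).

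With VIP, irradiation raised Junb again and changed no other member, in a comparison in which 7.78% of all genes were called (776 of 9976). Junb was at 168, 251, 206 and 220 CPM without and at 239, 240, 324 and 284 after irradiation. Mice 1, 3 and 4 were higher and mouse 2 slightly lower, with a log2 fold change of 0.36 (SE 0.09; edgeR adjusted p = 0.0089). Jun was at 237, 343, 270 and 308 without and at 217, 346, 227 and 265 after irradiation, a log2 fold change of −0.16 with an adjusted p of 0.199. Fosb, at 6.76, 21.6, 7.67 and 11.6 without and 6.39, 11.2, 6.47 and 3.77 after irradiation, was at −0.78 (adjusted p = 0.0985).

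The calls depended on which mice were included. In untreated cells Jun had adjusted p-values of 0.0937, 0.164 and 0.135 without mouse 2, 3 or 4, and Junb of 0.104 and 0.128 without mouse 3 or 4. In VIP-treated cells Junb had adjusted p-values of 0.135 without mouse 3 and 0.07 without mouse 4, and Ier2 was called without mouse 1 (−0.22; adjusted p = 0.0469). Without the mouse as a block, neither Jun (edgeR adjusted p = 0.246) nor Junb (0.0611) was called in untreated cells. The log2 fold change of Junb stayed between 0.26 and 0.50 in these leave-outs of both comparisons. The 8 members other than Jun and Junb were not called in untreated cells. Among them Ier3 had the largest log2 fold change, 0.64 (95% interval 0.09 to 1.19; adjusted p = 0.203), and Fos had −0.14 (−0.37 to 0.10).

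**Figure D4:**
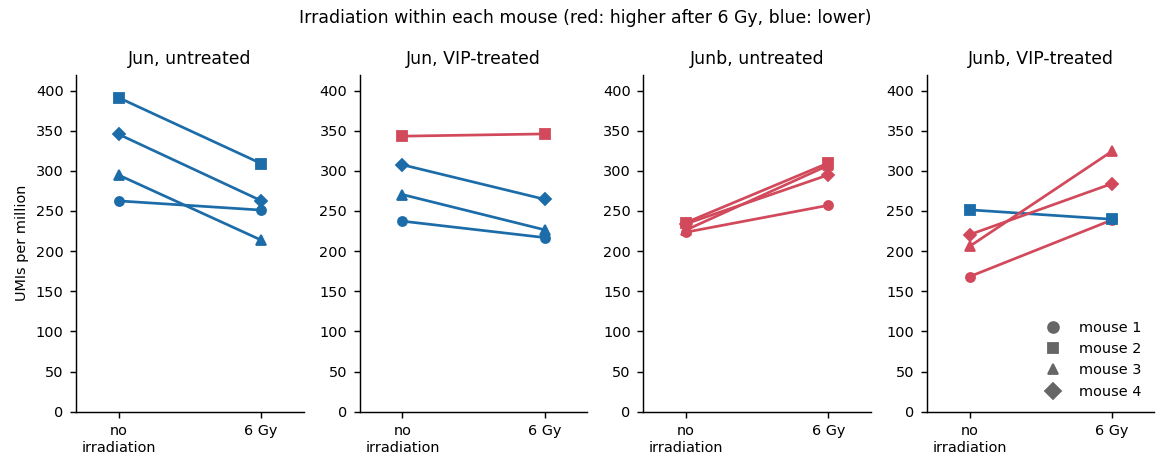
Jun and Junb (CPM, axis from 0) in sorted cells without and with 6 Gy of irradiation; each line is a mouse, red where the level was higher after irradiation and blue where it was lower. Jun fell in 4 of 4 mice without VIP, and Junb rose in 4 of 4 mice without VIP and in 3 of 4 with it.

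The interaction of VIP with irradiation was called for none of the 10 members, and 0.00% of all genes were called (0 of 9976; 634 had an unadjusted p below 0.05 and DESeq2 called 0). The interaction was 0.15 for Jun (95% interval −0.06 to 0.36) and 0.01 for Junb (−0.24 to 0.26), so the call of Jun without VIP and its absence with VIP is not a shown difference. Dusp1 had the largest value, 0.45 (−0.10 to 0.99; edgeR adjusted p = 0.861).

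Around these members, irradiation raised some of the other genes of the response. The AP-1 subunit Fosl1 rose by 1.1 in untreated and 1.96 in VIP-treated cells, the only one of 6 AP-1 partners called in either. The effectors Areg (1.29 and 1.32) and Plk2 (1.31 and 1.77) rose in both, as 4 and 6 of 20 effectors tested, with none lower. Among the transcription factors, Btg2, also a p53 target, rose in both (0.45 and 0.72), and Nr4a1 (0.88) and Klf6 (0.28) in VIP-treated cells. The AP-1 targets Plaur (1.35 and 0.95) and Ccnd1 (0.45 and 0.82) rose as 2 and 3 of 4 tested. As a check of the irradiation itself, 9 of 10 p53 targets were higher in each comparison and none lower, with Cdkn1a at 1.15 and 1.75. No feedback gene (0 of 11) and no upstream gene (0 of 20) was called in either comparison, and of 12 heat shock genes 0 were called without and 2 were lower with VIP. Markers of other epithelial cells moved with irradiation. All 5 Paneth cell markers were higher in both comparisons, as were 4 and 3 of 6 goblet, 2 and 1 of 6 enterocyte and 2 and 3 of 4 enteroendocrine markers, with none lower. Of 7 stem cell markers 2 were lower in each comparison, Olfm4 (−0.64 and −0.86) and Smoc2 (−0.31 and −0.31), and none higher, and the median over the 7 was 0.02 without and −0.26 with VIP. The Paneth markers summed to 9757 to 14460 CPM in untreated, unirradiated cells and to 14523 to 26743 after irradiation. The part of these shifts in the values of Jun and Junb was not tested.

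The largest differences in level were between the experiments. Untreated sorted cells of the 72 h experiment differed from untreated whole organoids in 4 of 10 members. That share was near the one over all genes, of which 38.0% were called (4044 of 10649). Fos was higher (log2 fold change 1.41, SE 0.41; edgeR adjusted p = 0.0105) and so was Jun (0.77, SE 0.30; 0.0489). Junb was lower (−0.59, SE 0.17; 0.0108), at 46.1 to 82.2 CPM against 105 to 120, without overlap. Fosb was the other member called, as higher. It was too low to test in whole organoids or in the 72 h cells alone. The fit that called it also held the cells of the irradiation experiment, with 14 to 20 UMIs a sample. Fosb had 11 UMIs in 2694586 in the sorted cells and 1 in 14394798 in the whole organoids, a ratio of 58.8 with an exact 95% interval from 8.54 to 2529 that covers counting error only. The values of Fos in these cells ran from 12.7 to 100, around those of whole organoids (17.7 to 24.1), and without mouse 3 the log2 fold change was 0.61 with an adjusted p of 0.135. Without mouse 1, Jun had an adjusted p of 0.234 and Junb of 0.0756. Without mouse 2 the values were 0.155 and 0.0533, and without mouse 4 Junb was at 0.0732. Each leave-out removed the mouse of that number from both groups. Other genes of the response were mostly not called or lower in the 72 h cells. Of 11 transcription factors 2 were lower, among them Klf10 (−1.31), of 20 effectors 1 was higher and 4 were lower, among them Ppp1r15a (−1.47), and of 11 feedback genes 2 were lower, among them Dusp6 (−1.89). Heat shock genes were higher in 4 of 10, such as Hsp90aa1 (1.47), and lower in 1.

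In the irradiation experiment, untreated and unirradiated sorted cells were above untreated whole organoids in 9 of 10 members, against 54.2% of all genes called in either direction (5774 of 10649, of which 2619 higher). Fos, at 247 to 315 CPM, was 15.1-fold above whole organoids (log2 fold change 3.91, SE 0.37; edgeR adjusted p = 3.21e-07). Dusp1 was 4.74-fold higher (27.0 to 52.4 against 9.01 to 10.6) and Jun 3.96-fold (263 to 391 against 62.0 to 122). For Fosb, 67 UMIs in 6537817 against the same 1 UMI give a ratio of 148 (25.6 to 5913). Too low to test in whole organoids alone, Fosb passed the filter on low counts in a fit that also held these sorted cells. Ier2 (2.49-fold), Atf3 (2.36-fold), Egr1 (2.35-fold), Junb (2.16-fold) and Jund (1.56-fold) were higher as well. For these genes the sorted and the whole-organoid samples did not overlap. Only Ier3 was at the same level, 6.67 to 13.1 against 6.45 to 14.2, with a log2 difference of 0.01 (95% interval −0.67 to 0.69). Without mouse 1, Atf3 had an adjusted p of 0.0625. The median log2 difference over all genes was −0.04. Among the other genes of the response 3 of 11 transcription factors were higher, such as Nr4a1 (3.52), and 2 lower, such as Klf10 (−2.16). Of 20 effectors 7 were higher, such as Ccn1 (2.74), and 1 was lower, and of 22 upstream genes 8 were lower, such as Mapk8, which encodes JNK1 (−1.29).

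**Figure D5:**
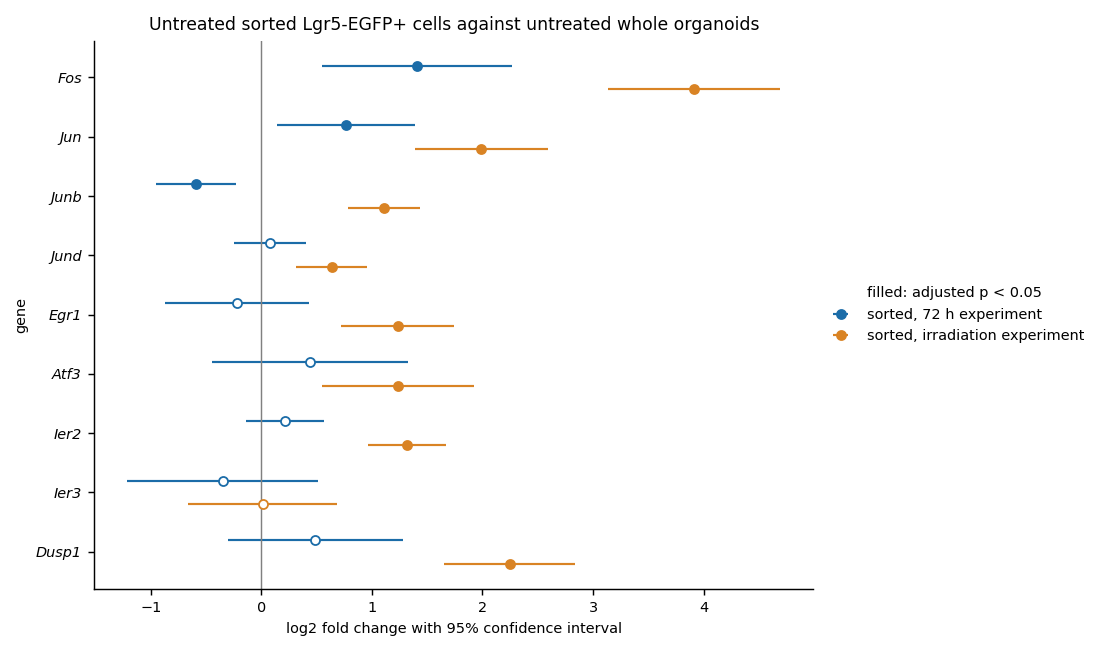
Log2 fold change, with 95% confidence interval, of untreated sorted Lgr5-EGFP+ cells against untreated whole organoids, for the sorted cells of the 72 h experiment (blue) and of the irradiation experiment (orange); filled points had an adjusted p below 0.05, and Fosb, with 1 UMI in all untreated whole organoids, is left out. Fos is at 1.41 and 3.91 and Junb at −0.59 and 1.11.

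The sorted experiments were then set against each other, a comparison added after these values were seen. Both hold untreated, unirradiated Lgr5-EGFP+ cells of 4 reporter mice that had been dissociated and sorted. In the irradiation experiment 7 of 10 members were higher and none lower, with 30.8% of all genes called (3280 of 10649, of which 1379 higher), and the median log2 difference was 1.18 over the members and −0.02 over all genes. Fos differed by 2.51 on the log2 scale (SE 0.36; edgeR adjusted p = 3.81e-05), Dusp1 by 1.76 (0.00064), Junb by 1.70 (5.09e-07), Egr1 by 1.45 (0.00104), Jun by 1.22 (0.00255), Ier2 by 1.1 (4.44e-05) and Jund by 0.56 (0.00755). Fosb, Atf3 and Ier3 were not called, with log2 differences of 1.14, 0.80 and 0.36, and their counts in the 72 h experiment were 0 to 16 UMIs a sample. Of the called members, Egr1 (7 to 16 UMIs) and Dusp1 (4 to 12) had similarly few counts in the untreated 72 h samples. Fosb passed the test without mouse 3 (adjusted p = 0.0135) and Atf3 without mouse 2 (0.0177). Fos also varied less between mice in the irradiation experiment, 1.27-fold from lowest to highest in untreated, unirradiated cells against 7.89-fold in the untreated cells of the 72 h experiment. With VIP, the unirradiated cells of the irradiation experiment varied 2.34-fold. The untreated samples held 394 to 511 Fos UMIs in the irradiation experiment and 8 to 61 in the 72 h experiment, so counting error adds more to the latter spread. Scaling by library size alone moved the members' median log2 difference by −0.28 for the 72 h cells against whole organoids, by −0.10 for the cells of the irradiation experiment against whole organoids and by 0.18 between the sorted experiments. Under it Jun was no longer called in the 72 h cells (0.50; adjusted p = 0.162).

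Between the sorted experiments 5 of 11 other immediate early transcription factors were higher in the irradiation experiment and none lower, among them Nr4a1 (3.67), Myc (1.13) and Klf6 (1.09), and 8 of 20 effectors were higher and none lower, such as Ppp1r15a (2.21) and Ccn1 (1.78). The AP-1 subunit Fosl1 was higher (4.33) and Fosl2 lower (−1.09). Of the upstream kinases and transcription factors, 1 of 22 was higher and 3 were lower, among them Creb1 (−1.02), and of 11 feedback genes 2 were higher, among them Dusp6 (1.71), and 4 lower. Of 10 heat shock genes 1 was higher and 4 were lower, with Hsp90aa1 at −1.63 and Dnaja1 at 0.99. Summed heat shock levels were 4529 to 4888 CPM in the untreated cells of the 72 h experiment, 3840 to 4218 in those of the irradiation experiment and 3292 to 3966 in whole organoids. Of 9 p53 targets 4 were higher in the irradiation experiment and none lower, among them Cdkn1a (1.27), Phlda3 (1.79) and Bax (0.59), in cells that were not irradiated. Of 4 enteroendocrine markers 2 were higher, Chga (1.89) and Chgb (1.05), and the other 2 were below 0 and not called. Of 7 stem cell markers 3 were lower, Slc12a2 (−0.998), Lgr5 (−0.95) and Olfm4 (−0.67), and none higher, with a median of −0.67. The part of dissociation, sorting, culture time, mice and library depth in these levels was not tested, and the experiments do not allow them to be told apart.

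Across all 8 groups, the order of the group means put the 4 groups of the irradiation experiment on top for every member except Ier3. For Fos these means were 247 to 280 CPM, for Jun 259 to 323, for Junb 212 to 292, for Dusp1 33.2 to 44.0 and for Ier2 568 to 675, and the sample ranges of neighbouring groups among these 4 overlapped in nearly all cases. The exception was Junb, whose VIP-treated irradiated samples (239 to 324) lay above all untreated, unirradiated ones (224 to 236). The step down to the next group was a gap without overlap for Fos (46.1 in VIP-treated sorted cells of the 72 h experiment), Jun (123 in the untreated ones), Ier2 (289 in untreated whole organoids) and Dusp1 (18.9 in VIP-treated whole organoids). For Junb, Jund, Egr1, Atf3 and Fosb the ranges at that step overlapped. Ier3 was highest in VIP-treated whole organoids, at a mean of 18.9 ± 5.27 (SD, n = 4), and every group overlapped its neighbours.

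Within the irradiation experiment the members did not vary as a block. Over its 16 samples, after removing mouse and group means, the median Pearson r over the 45 pairs of members was 0.05, with 24 pairs above 0, against 0.00 for pairs of all genes. The points share libraries and depth. Ier2 and Fos were closest to the mean of the other members (r = 0.71 and 0.58), and Ier3 and Egr1 ran against it (−0.47 and −0.39). The 5 other genes most like the members' mean were Bola3 (r = 0.96), BC029722 (0.92), Mrpl57 (0.90), Rp9 (0.90) and Epb41l4aos (0.89). These are descriptions, picked as the highest of 9976 genes. No r is given for the other experiments, where removing mouse and group means leaves few degrees of freedom.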

How the data were processed

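RNA was sequenced from whole jejunal organoids and from sorted Lgr5-EGFP+ cells with a 3′ method that carries UMIs, and the authors deposited tables of UMI counts per gene on GRCm38. These counts hold 37 libraries of 31 samples, and 0 columns had no sample. Libraries that the labels number as technical replicates (TR) of the same mouse and treatment were added together. They are called libraries of a culture here, although the labels do not say whether they shared a culture. Group and mouse number came from the labels. Counts were tested with edgeR 4.0.16 (R 4.3.3), using TMM factors, its expression filter, the mouse as a block within an experiment and Benjamini-Hochberg adjustment over all genes. Comparisons of untreated samples between experiments had no block, since their mice differ. DESeq2 1.42.0, other scalings and filters, and leaving out each mouse were alternatives. Log2 values within a mouse used counts scaled by TMM factors. The p-values measure the spread between cultures of these mice. The pairing by mouse was checked on residuals: samples of the same mouse had r from 0.27 to 0.63 in whole organoids, from 0.03 to 0.21 in the 72 h experiment and from −0.07 to 0.16 in the irradiation experiment. Samples of different mice had r from −0.54 to 0.33, from −0.14 to 0.15 and from −0.20 to 0.20 in the same order. These ranges overlapped those of the same mouse in each experiment, and in the irradiation experiment they reached higher. The check therefore does not settle the pairing. The fitting code was also run on simulated counts with a treatment effect and no difference between mice. Interactions and comparisons between experiments were not simulated.

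The 10 genes and all lists were chosen with earlier results of these data known. All 10 genes were named, with at most 3 genes past the threshold, those of smallest p, per other list and comparison. The genes most like the members were the 5 with the highest correlation with their mean residual. Cyr61, Ctgf, Mkl1 and Mkl2 were read as Ccn1, Ccn2, Mrtfa and Mrtfb. Motifs were searched in Python 3.11.15.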

Additional observations from a re-analysis of the deposited data

Results flagged for a closer look

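The difference of untreated sorted cells from untreated whole organoids was not the same in the sorted experiments for 7 genes. The difference between the experiments was tested directly with edgeR's quasi-likelihood test, as cells of the irradiation experiment against cells of the 72 h experiment, and on the log2 scale it was 2.51 for Fos, 1.22 for Jun, 1.70 for Junb, 0.56 for Jund, 1.45 for Egr1, 1.1 for Ier2 and 1.76 for Dusp1. All 7 were higher in the irradiation experiment.

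In the 70 groups of 4 mice, a single sample stood far from the others in 2. Fosb had 0 UMIs in VIP-treated mouse 1 of the 72 h experiment, where each of the other 3 mice had 1 UMI, with a gap of 0.942 of the range on the log2 scale. Ier3 was at 10.4 CPM in untreated mouse 2 of that experiment, from 9 UMIs, against 3 UMIs in each of the others (gap 0.927). Chance flags about 1 in 20 groups.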

How the results depend on the processing

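Of the members called with VIP in whole organoids (5), DESeq2 called 3 and the fit with no replicate block 1. Under irradiation of untreated cells (2 called), the fit with no replicate block called 0, and leaving out 1 mouse gave 0 to 2; of VIP-treated cells (1 called), it gave 0 to 2. Requiring at least 10 counts in every sample, which tests fewer members, left 1 call in the 72 h cells against whole organoids (4 called; 2 to 3 without 1 mouse), and 4 in the cells of the irradiation experiment against whole organoids (9) and against the 72 h cells (7).

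Values near 0 changed sign, none of them past the threshold. With no replicate block, VIP for 72 h gave −0.012 for Fos and −0.065 for Egr1 (DESeq2 −0.066 for Egr1), and Jund in unirradiated cells was −0.0074. That Jund value was −0.013 with all genes of any count, −0.0014 with at least 10 counts and −0.0015 with only the compared groups fitted. With library sizes alone, Jun with VIP in irradiated cells was 0.0045, and against whole organoids the 72 h cells gave −0.20 for Jund and −0.062 for Ier2 and the cells of the irradiation experiment −0.10 for Ier3. With all genes of any count these were −0.10 for Jund and −0.019 for Ier3. Jund was −0.011 with at least 10 counts, and Ier3 −0.0013 without mitochondrial genes.

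Leaving out 1 mouse gave these ranges. VIP for 72 h: Fos −0.064 to 0.27. VIP in unirradiated cells: Fosb −0.13 to 0.41, Jund −0.061 to 0.089 and Ier3 −0.045 to 0.18. VIP in irradiated cells: Fos −0.068 to 0.085, Jun −0.084 to 0.058, Jund −0.038 to 0.061, Egr1 −0.089 to 0.23 and Dusp1 −0.15 to 0.28. Irradiation of untreated cells: Egr1 −0.21 to 0.079 and Atf3 −0.078 to 0.18. Irradiation of VIP-treated cells: Fos −0.070 to 0.21, Atf3 −0.22 to 0.14 and Dusp1 −0.037 to 0.28. Interaction of VIP and irradiation: Junb −0.073 to 0.15, Jund −0.028 to 0.031, Egr1 −0.079 to 0.43, Atf3 −0.22 to 0.055 and Ier2 −0.012 to 0.082. Against whole organoids, the 72 h cells gave Atf3 −0.45 to 0.70 and Ier3 −0.83 to 0.049, and the cells of the irradiation experiment Ier3 −0.16 to 0.29.

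Counts over all genes ran, over all alternatives, from 99 to 1668 for VIP in whole organoids, 1 to 17 for VIP for 72 h, 32 to 184 and 5 to 110 for VIP in unirradiated and irradiated cells, 176 to 643 and 426 to 872 for irradiation without and with VIP, 0 to 34 for the interaction of VIP and irradiation, and 0 to 55 for that of VIP and compartment. The causes of these changes were not tested. Low members limit the 72 h experiment, whose samples held 575242 to 1104126 UMIs.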
